A study of Mus musculus with 56 samples.

Results

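The kidney corrects the acid and base load of each meal by making ammonia from glutamine and by moving protons and bicarbonate across its tubules, and 9 genes of this system were followed here across inverted feeding. They were chosen by name: Glud1, Slc38a3, Rhbg and Rhcg for ammonia, Slc4a4, Slc4a1 and Slc26a4 for bicarbonate, and Car2 and Car4 as carbonic anhydrases. That choice was made with earlier results of these data known. All 9 were among the 17027 genes of the table, and all 9 were among the 12232 genes tested.

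Kidney poly(A) RNA was sequenced from 56 female C57BL/6J mice aged 9 weeks, which had been entrained to 12 h of light and 12 h of dark. For the last 7 days the mice ate in the light phase alone, under daytime-restricted feeding (DRF), or in the dark phase alone, under nighttime-restricted feeding (NRF). Each regimen was sampled every 4 h, from lights on at zeitgeber time 0 (ZT0) to ZT24, with 4 mice per regimen and time and 14 groups in all. The regimens differed in the labels by the feeding window alone, and each DRF value is read against NRF.

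Levels are given as TPM (length-corrected reads, scaled to the same sum in every library), rebuilt from the reads that the deposited values imply. Each library held 22.31 to 24.7 M reads of the genes used, and each member had at least 1051 reads in every library. Differences, amplitudes and their standard errors (SE) are on the scale log2(TPM + 1), and a call is a Benjamini-Hochberg adjusted p under 0.05 over all genes tested with limma. The RNA came from whole kidney, where fewer cells of a type and less RNA per cell cannot be told apart. Markers of proximal tubule summed to 4417 to 9352 TPM per library, and markers of intercalated cells to 482 to 833 TPM, so the nephron segments that use these genes were present in all libraries. Markers of adipose tissue summed to a median of 13.3 TPM but exceeded 500 TPM in 6 libraries, up to 2899.6 TPM in an NRF ZT12 library. The other marker sums were 887 to 2508 TPM for principal cells, 4068 to 9624 TPM for the thick ascending limb, 578 to 1393 TPM for the distal convoluted tubule, 389 to 752 TPM for endothelial cells, 251 to 551 TPM for podocytes, 527 to 1949 TPM for immune cells, 154 to 681 TPM for liver and 3.94 to 7.00 TPM for the adrenal gland. An NRF ZT24 library carried a replicate number that the labels do not give, and it is called the unnumbered library.

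In the proximal tubule, glutamine enters through the transporter made by Slc38a3 (SNAT3), and glutamate dehydrogenase, made by Glud1, releases ammonium from the glutamate formed. The bicarbonate produced at the same time leaves toward the blood through the sodium-bicarbonate cotransporter of Slc4a4 (NBCe1). In the collecting duct, the Rh glycoproteins of Rhbg and Rhcg carry ammonia toward the urine, acid-secreting intercalated cells return bicarbonate to the blood through the anion exchanger of Slc4a1 (AE1), and base-secreting intercalated cells release it into the urine through pendrin, made by Slc26a4. Carbonic anhydrase interconverts carbon dioxide and bicarbonate, in the cytosol in the case of Car2 and on the membrane in the case of Car4.

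To place the members by abundance, their levels were averaged over all 56 libraries. Car2 was the most abundant with 889 ± 118 TPM (SD, n = 56), followed by Glud1 with 843 ± 126 TPM, and Car2 was the higher of the pair in 35 of 56 libraries, so their ranges overlapped. Slc4a4 was at 370.1 ± 91.1 TPM, Rhcg at 235 ± 24.7 TPM and Car4 at 203 ± 26.9 TPM. Slc38a3 was at 119 ± 36.6 TPM and Rhbg at 112 ± 20.8 TPM, an order that held in only 31 of 56 libraries. Slc26a4 was at 91.5 ± 15.1 TPM and Slc4a1 was the lowest at 61.6 ± 15.5 TPM. Apart from those 2 pairs, each gene exceeded the next in 47 to 56 of the 56 libraries. The group means of Slc38a3 spanned the widest range, 2.24-fold between NRF ZT16 and NRF ZT8, and those of Car2 the narrowest, 1.28-fold.

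To determine which members oscillated, cosines with a period of 24 h were fitted within each regimen. Under NRF, 7 of 9 members were rhythmic, compared with 54.4% of all genes tested. Glud1 and Slc26a4 were the exceptions. Under DRF, 3 of 9 were rhythmic, namely Slc38a3, Rhbg and Slc4a4, against 36.0% of all genes. The cosine differed between regimens in 5 of 9 members, against 45.4% of all genes, and these were Slc38a3, Slc4a4, Slc4a1, Car2 and Car4. Each of these shares is a count over few genes near the background, and none is particular to the members. The amplitude was lower under DRF in 7 of 9 members and in 62.9% of all genes. The median amplitude of the members was 0.17 under NRF and 0.09 under DRF, beside 0.13 and 0.11 over all genes. The counts rest in part on single time points, because leaving out ZT8 left 3 rhythmic members under NRF.

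**Figure D1:**
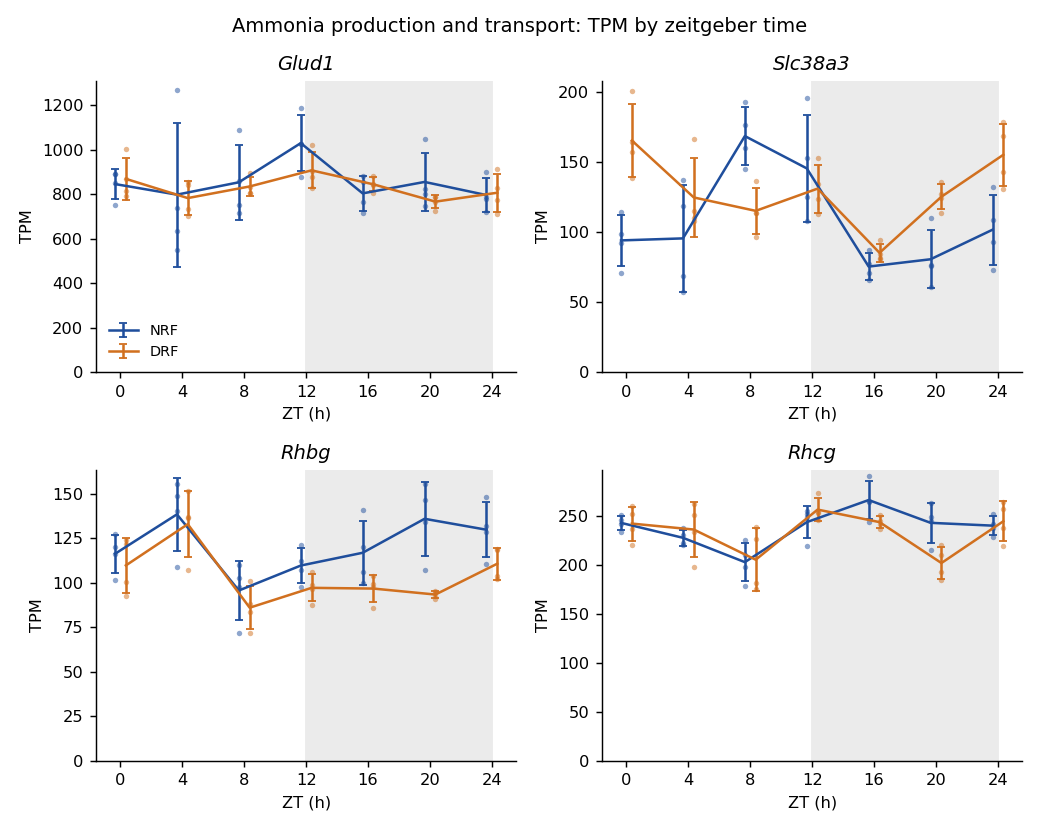
TPM of the 4 ammonia genes against zeitgeber time (h), in blue for NRF and orange for DRF, with points for single mice, lines through the group means, bars for the SD (n = 4) and grey for lights off. Slc38a3 rose to 168 TPM at ZT8 under NRF and was highest at ZT0 under DRF, at 165 TPM, whereas the group means of Glud1 lay between 767 and 1031 TPM.

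Slc38a3 (chromosome 9, 107650634 to 107669530, minus strand) gave the largest differences among the members. At ZT8 the 4 NRF mice had 144, 159.9, 176 and 192 TPM and the 4 DRF mice had 96.6, 113.5, 113.6 and 136 TPM. At ZT0 the NRF mice had 70.8, 92.2, 98.4 and 114 TPM and the DRF mice had 139, 157, 164 and 200.4 TPM. The regimens did not overlap at either time, and their order was opposite, though the ZT8 difference was not called. Here and below, such a lack of overlap is not a test, and no share over all genes is given for it. At ZT20 the NRF mice had 60.3, 75.8, 76.0 and 109.6 TPM and the DRF mice had 113, 124, 127 and 135 TPM, again without overlap.

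Slc38a3 was higher under DRF 1.76-fold at ZT0 (log2 difference 0.82 ± 0.20, SE, adjusted p 0.00264), 1.58-fold at ZT20 (0.66 ± 0.20, adjusted p 0.0155) and 1.54-fold at ZT24 (0.63 ± 0.20, adjusted p 0.0241). At ZT8 the difference was -0.55 ± 0.20 with an adjusted p of 0.0507, which missed the threshold. With ZT0 and ZT24 averaged, DRF was higher by 0.72 ± 0.14 (adjusted p 7.34e-05). The ZT24 call was lost in 4 of 16 alternative analyses, which were those without the unnumbered library (adjusted p 0.0647), with a replicate block (0.0715), without replicate 1 (0.0669) and without replicate 2 (0.131). The ZT0 call was lost without replicate 3 of each group (adjusted p 0.0572), and the ZT20 call without replicate 2 or replicate 4 (adjusted p 0.0872 and 0.113).

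The rhythm of Slc38a3 was the largest of the members under NRF, with an amplitude of 0.47 ± 0.11 and a peak at 8.37 h (adjusted p 0.00184). Under DRF the amplitude was 0.27 ± 0.07 with a peak at 1.66 h (adjusted p 0.0105). The NRF rhythm lost its call without ZT8 (adjusted p 0.123), and the DRF rhythm lost it in 5 of 23 alternative analyses, namely without ZT0 (adjusted p 0.0801), ZT16 (0.12), ZT24 (0.0576), replicate 2 (0.0627) or replicate 3 (0.0582). The peak under DRF came earlier, with a shift of -6.71 ± 1.35 h, and the cosines differed with an adjusted p of 0.000582. This interaction was called in all 23 alternative analyses, with adjusted p between 1.86e-05 and 0.0317. The size of the shift was less certain, since it was -4.70 h without ZT4 and -11.4 h without ZT16. A component with a period of 12 h, described below, had the same amplitude under DRF (0.27 ± 0.05, adjusted p 0.000913). The single 24-h cosine, and so its peak and shift, therefore describes the DRF profile only in part. The lowest DRF group was ZT16, with 80.7 to 94.2 TPM, and the lowest NRF group was also ZT16, with 65.8 to 87.4 TPM. NRF ZT16 (75.2 ± 9.33 TPM) and NRF ZT20 (80.4 ± 20.8 TPM) did not differ beyond their spread, and trough times were not compared by a test.

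Glud1 (chromosome 14, 34310727 to 34345265, plus strand) was not called rhythmic under NRF (amplitude 0.11 ± 0.06, adjusted p 0.342) or under DRF (0.06 ± 0.03, adjusted p 0.307). Its highest group was NRF ZT12, with 879, 1025.4, 1028 and 1189 TPM. The widest spread was at NRF ZT4, where replicate 1 had 1270.3 TPM and the other mice had 551 to 739.7 TPM. At no time point did DRF and NRF differ in a call, and the log2 difference ranged from -0.18 at ZT12 to 0.08 at ZT16. The mesor, the mean over clock time, differed by -0.03 with an interval of -0.14 to 0.08 (2 SE to each side, as for every interval here).

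Rhbg (chromosome 3, 88242874 to 88254709, minus strand) was lower under DRF, most of all late in the night. At ZT20 the NRF mice had 107, 134, 147 and 155 TPM, and the DRF mice had 90.8, 92.7, 94.5 and 95.2 TPM. The groups did not overlap, and the difference was -0.52 ± 0.12 (adjusted p 0.00232). Over clock time it averaged 120 TPM in NRF mice and 103 TPM in DRF mice, a mesor difference of -0.22 ± 0.05 (adjusted p 0.00197), with DRF lower at 7 of 7 time points. Both calls held in all 16 alternative analyses run for them, with the highest adjusted p at 0.0181 and 0.0265. Beside this, intercalated cell markers summed to 559 ± 59.1 TPM in NRF and 544 ± 23.9 TPM in DRF at ZT20, and 2 of the 10 markers, Atp6v1g3 (-0.30, adjusted p 0.0481) and Insrr (-0.41, adjusted p 0.0311), were lower there under DRF. Of all genes tested, 16.9% were called at ZT20 and 9.28% for the mesor, in either direction. For the mesor, 5 of the 10 intercalated cell markers were lower under DRF and 0 were higher. Of 8 principal cell markers, Scnn1g (-0.46, adjusted p 0.00359) and Hsd11b2 (-0.36, adjusted p 0.00127) were lower under DRF at ZT20, while their sum was 1243.5 ± 55.4 TPM in NRF and 1353 ± 439 TPM in DRF. For the mesor, 3 principal cell markers (Scnn1b, Scnn1g and Hsd11b2) and 3 of 6 tested immune cell markers were lower and 0 of either were higher. The part of these cells in the Rhbg difference was not tested.

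A rhythm of Rhbg was called under both regimens, with an amplitude of 0.17 ± 0.06 and a peak at 22.2 h under NRF (adjusted p 0.0411) and of 0.17 ± 0.05 and a peak at 2.16 h under DRF (adjusted p 0.0309). The peaks lay 3.96 ± 1.85 h apart and the interaction was not called (adjusted p 0.24). The NRF call was lost in 13 of 23 alternative analyses, among them that without the unnumbered library (adjusted p 0.0681). The DRF call was lost in 9 of 23, among them that with median-of-ratios rescaling (adjusted p 0.0927).

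Rhcg (chromosome 7, 79593363 to 79617657, minus strand) was rhythmic under NRF with an amplitude of 0.14 ± 0.03 and a peak at 18.2 h (adjusted p 0.00216). At the peak, NRF ZT16, the mice had 244, 264, 265 and 291 TPM, and at the trough, NRF ZT8, they had 179, 198, 209.9 and 225 TPM. Under DRF the fitted amplitude was 0.02 ± 0.05 (adjusted p 0.959), but the interaction was not called (adjusted p 0.174), so a loss of rhythm was not shown. The DRF profile instead had low means at both ZT8 (205 ± 31.9 TPM) and ZT20 (202 ± 16.1 TPM) and higher means between them, up to 256 ± 12.1 TPM at ZT12. At ZT20 the difference was -0.27 ± 0.08 (adjusted p 0.0192), although the groups overlapped. That call was lost without replicate 1 or replicate 2 of each group (adjusted p 0.142 and 0.11). The intercalated and principal cell markers that were lower under DRF at ZT20 are those given with Rhbg, and their part in the Rhcg difference was not tested.

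**Figure D2:**
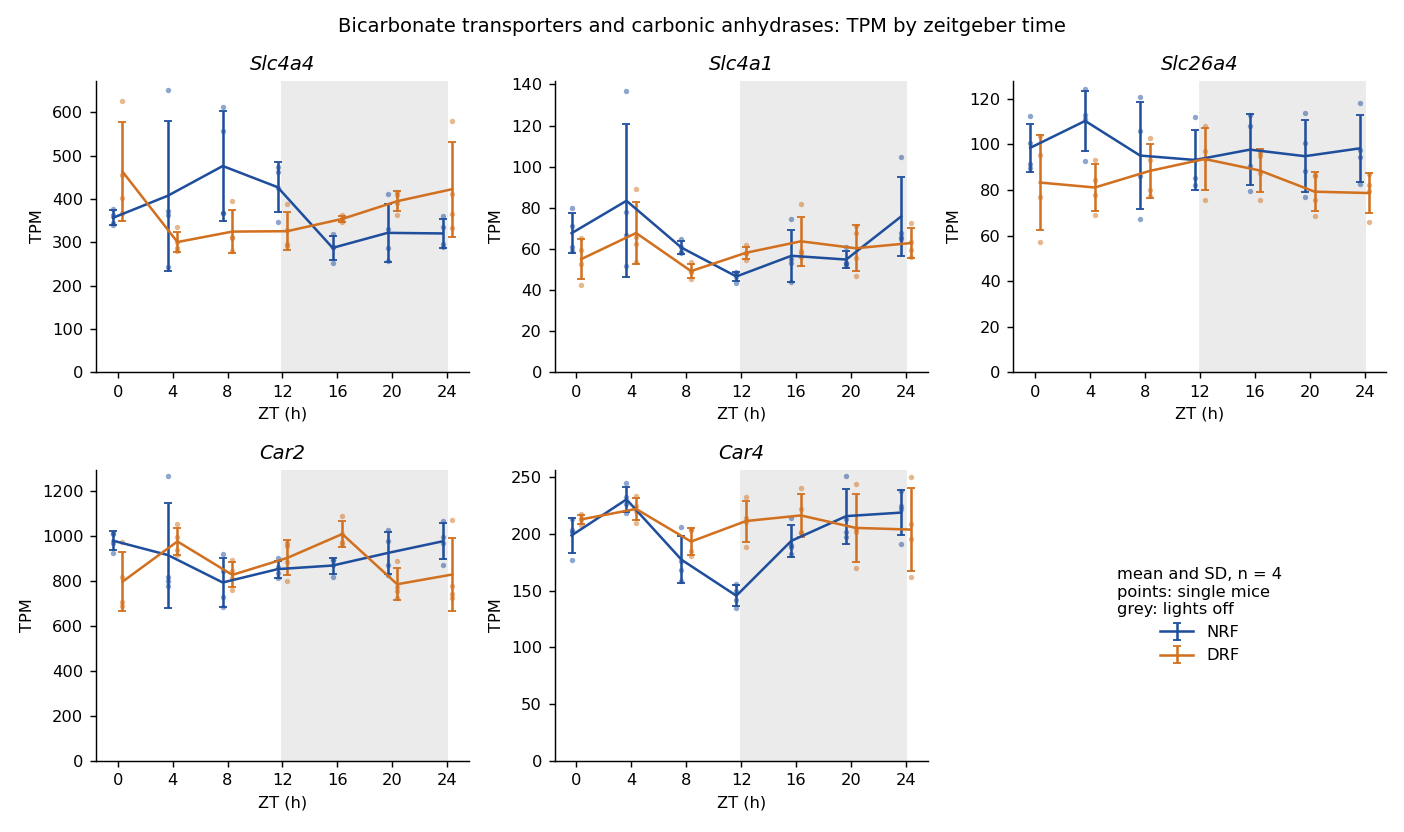
TPM of the 3 bicarbonate transporters and 2 carbonic anhydrases against zeitgeber time (h), drawn as for the ammonia genes. The mean of Slc4a4 was highest at ZT8 under NRF (476 TPM) and at ZT0 under DRF (463 TPM), and Car4 fell to 145 TPM at ZT12 under NRF but not under DRF (211 TPM).

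Slc4a4 (chromosome 5, 88886818 to 89239653, plus strand) had the lowest interaction p of the members. It has 2 annotated start sites, 140.7 kb apart, and the kidney form of the protein is known to come from the inner of them. The table gives 1 value per gene, over an exon length of 10815 bases that includes the exons of both forms, so the forms could not be told apart and the TPM is per base of that joint length. The 250 bases before each start are shown because the rhythm described next belongs to either or both (RefSeq, GRCm38.p6, 5′ to 3′). The outer window spans chr5:88887010-88887259 and the inner chr5:89027716-89027965, both on the plus strand. The gene span given above is from GENCODE and begins at 88886818, before the outer window. The outer window is thus upstream of the RefSeq start only, and its bases may be transcribed.
Slc4a4 outer start: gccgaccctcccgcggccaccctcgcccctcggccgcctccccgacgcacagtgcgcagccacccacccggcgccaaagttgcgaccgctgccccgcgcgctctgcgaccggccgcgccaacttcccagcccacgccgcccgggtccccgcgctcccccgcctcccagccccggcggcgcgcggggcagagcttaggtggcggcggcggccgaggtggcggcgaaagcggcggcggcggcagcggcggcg
Slc4a4 inner start: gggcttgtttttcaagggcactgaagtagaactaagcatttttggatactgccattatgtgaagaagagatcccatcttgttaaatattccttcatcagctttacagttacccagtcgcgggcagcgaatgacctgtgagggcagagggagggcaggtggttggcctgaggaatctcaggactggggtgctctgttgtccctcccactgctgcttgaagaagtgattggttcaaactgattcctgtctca
The outer window held 82.0% G and C with 44 CG pairs, and the inner window held 48.8% with 3 CG pairs.

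At ZT8 the NRF mice had 366, 368, 557 and 613 TPM of Slc4a4, and the DRF mice had 281, 309, 313 and 396 TPM. At ZT16 the NRF mice had 251, 288, 289.6 and 319 TPM, and the DRF mice had 347, 351, 354 and 363 TPM. At ZT8 the groups overlapped with NRF mostly the higher, and at ZT16 all DRF mice were above all NRF mice. Only the difference at ZT8 was called at a single time point (-0.52 ± 0.18, adjusted p 0.044), and it was lost in 8 of 16 alternative analyses, including CPM scaling (adjusted p 0.051) and the analysis without adipose-rich libraries (adjusted p 0.0532). With ZT0 and ZT24 together, DRF was higher by 0.36 ± 0.13 (adjusted p 0.0289).

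The Slc4a4 cosine peaked at 7.62 h under NRF (amplitude 0.31 ± 0.08, adjusted p 0.00798) and at 21.3 h under DRF (0.24 ± 0.06, adjusted p 0.00841). The DRF peak came earlier, with a shift of -10.3 ± 1.35 h. That lies in the range of 8 to 12 h that the paper counts as phase-inverted. The paper also reports such shifts for part of the kidney genes that oscillated under both regimens. The interaction had an adjusted p of 0.000144. It was called in all 23 alternative analyses (adjusted p 5.45e-05 to 0.00605). The estimated shift was -8.09 h without ZT4 and 11.8 h without ZT16, and on a 24-h circle shifts near 12 h are alike in either direction. The NRF rhythm alone lost its call with the deposited values as they stand (adjusted p 0.0601), without ZT8 (adjusted p 0.076) or without replicate 4 of each group (adjusted p 0.0611), and the DRF rhythm without replicate 3 (adjusted p 0.0764).

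Slc4a1 (chromosome 11, 102348824 to 102366203, minus strand) was rhythmic under NRF, with an amplitude of 0.31 ± 0.07 and a peak at 2.41 h (adjusted p 0.0033). At NRF ZT12 the mice had 43.4, 46.3, 47.8 and 48.7 TPM. At NRF ZT4 they had 51.8, 66.9, 77.9 and 137 TPM, so the top of the profile depended on replicate 3. Under DRF the amplitude was 0.07 ± 0.06 (adjusted p 0.621). The interaction was called (adjusted p 0.029), but it was lost in 7 of 23 alternative analyses, namely without NRF ZT4 replicate 3 (adjusted p 0.0593), replicate 1 (0.277) or replicate 3 (0.18) of each group, and without ZT0 (0.0644), ZT12 (0.153), ZT20 (0.0584) or ZT24 (0.0568). The NRF rhythm lost its call without ZT12 (adjusted p 0.0551). No time point was called. At ZT8 the mice had 58.1 to 65.0 TPM in NRF and 45.1 to 53.6 TPM in DRF (adjusted p 0.273). At ZT12 they had 43.4 to 48.7 TPM in NRF and 54.5 to 61.7 TPM in DRF (adjusted p 0.230). The groups did not overlap at these 2 times, which is not a test, and no share over all genes is given for it.

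Slc4a1 is also a major protein of red blood cells, and the red cell markers summed to 862 to 10092 TPM over the libraries. The markers were highest at DRF ZT8 (7578 ± 1849.8 TPM), where Slc4a1 was at 49.1 TPM. They were next highest at NRF ZT24 (6688.5 ± 3701.5 TPM), where Slc4a1 was also second, at 75.8 TPM. That rank rested on the unnumbered library, with 105 TPM of Slc4a1. The other mice of NRF ZT24 had 65.0, 66.0 and 67.5 TPM, below the NRF ZT0 mean of 67.6 TPM. At NRF ZT4, where Slc4a1 was highest at 83.4 TPM, the red cell markers stood at 5181 ± 1776 TPM. Replicate 3 of NRF ZT4, which had the highest Slc4a1, had 4776 TPM of red cell markers, which was within its group's range of 3820.0 to 7779 TPM. It also had the highest sum of intercalated cell markers of all libraries, 833 TPM. The part of either in the Slc4a1 level was not tested.

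Slc26a4 (chromosome 12, 31519827 to 31559969, minus strand) was not rhythmic under NRF (amplitude 0.07 ± 0.06, adjusted p 0.579) or DRF (0.11 ± 0.05, adjusted p 0.173). Its level was lower under DRF. At ZT4 the NRF mice had 93.0, 111, 113 and 125 TPM and the DRF mice had 69.1, 77.7, 84.6 and 93.0 TPM, so that the groups just met. The difference at ZT4 was -0.44 ± 0.15 (adjusted p 0.0289) and that of the mesor was -0.20 ± 0.06 (adjusted p 0.0284, 98.3 TPM under NRF and 85.3 TPM under DRF). After median-of-ratios rescaling both differences remained downward, -0.37 at ZT4 (adjusted p 0.0848) and -0.18 for the mesor (adjusted p 0.0786), but neither was called. The calls were lost in 9 of 16 alternative analyses at ZT4 and in 7 of 16 for the mesor. The ZT4 losses included those without NRF ZT4 replicate 1 (adjusted p 0.0977) or replicate 3 (adjusted p 0.0648), and at ZT4 intercalated cell markers stood at 700 ± 94.9 TPM under NRF and 549.5 ± 18.3 TPM under DRF. At ZT4, 4 of the 10 markers were lower under DRF, where 27.6% of all genes were called in either direction. The part of these markers in the difference was not tested.

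Car2 (chromosome 3, 14886273 to 14900770, plus strand) was rhythmic under NRF, with an amplitude of 0.13 ± 0.04 and a peak at 22.4 h (adjusted p 0.0257), and not under DRF (0.09 ± 0.05, adjusted p 0.296). The NRF call was lost in 7 of 23 alternative analyses, namely with the deposited values (adjusted p 0.0568), without ZT0, ZT8 or ZT24 (0.0992, 0.136 and 0.0882) and without replicate 2, 3 or 4 (0.078, 0.121 and 0.0578). The interaction had an adjusted p of 0.0156, and it was lost in 4 of 23, without ZT0 (adjusted p 0.0979), ZT24 (0.056), replicate 1 (0.0987) or replicate 3 (0.0779). At ZT0 the NRF mice had 926, 971, 1008 and 1016 TPM and the DRF mice had 689.7, 708, 818 and 975 TPM. The difference at ZT0 alone missed the threshold (-0.31 ± 0.11, adjusted p 0.0509), and with ZT24 included the difference was -0.28 ± 0.08 (adjusted p 0.0058). Replicate 1 of NRF ZT4 had 1266 TPM against 779 to 820.1 TPM in the other mice of its group. Red blood cells hold Car2 too. Their markers summed to 7779 TPM in NRF ZT4 replicate 1 and to 3820 to 4776 TPM in the other mice of that group. At ZT0 the markers were at 2124 ± 457 TPM under NRF and 4659.5 ± 1485 TPM under DRF. The part of red blood cells in the Car2 level or difference was not tested.

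Car4 (chromosome 11, 84957786 to 84966044, plus strand) had the lowest adjusted p of any time point among the members. At ZT12 the NRF mice had 135, 142, 149 and 156 TPM, and the DRF mice had 189, 210.4, 214 and 233 TPM. The groups were well apart, and DRF was 1.45-fold higher (0.53 ± 0.09, adjusted p 6.06e-05). This call held in all 16 alternative analyses (highest adjusted p 0.00894). Markers of adipose tissue were highest at NRF ZT12, at 828 ± 1387 TPM, from 5.59 to 2899.6 TPM in single mice. Without the 6 adipose-rich libraries the difference was 0.55 (adjusted p 0.00034). That analysis keeps the NRF ZT12 mice at or under 500 TPM of these markers. The part of adipose tissue in the Car4 difference was not tested. At the other 6 time points no difference was called, and the log2 values lay between -0.11 and 0.16.

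Under NRF, Car4 followed a cosine with an amplitude of 0.23 ± 0.04 and a peak at 23.8 h (adjusted p 0.00023), and under DRF the amplitude was 0.01 ± 0.04 (adjusted p 0.965). The interaction was called (adjusted p 0.00495). It rested on ZT12, for without that time point the adjusted p was 0.387, and the NRF rhythm was then at 0.0705. The mesor was higher under DRF by 0.11 ± 0.04 (adjusted p 0.0424, 195 TPM under NRF and 209 TPM under DRF), a call lost in 6 of 16 alternative analyses, among them those without NRF ZT4 replicate 1 (adjusted p 0.0635), without the adipose-rich libraries (adjusted p 0.11) and without any 1 of the replicates 1 to 4 of each group (adjusted p 0.0521 to 0.228).
The 250 bases before the Car4 start are shown because Car4 had the most secure single-time difference (chr11:84957504-84957753, plus strand, RefSeq, GRCm38.p6, 5′ to 3′).
Car4 start: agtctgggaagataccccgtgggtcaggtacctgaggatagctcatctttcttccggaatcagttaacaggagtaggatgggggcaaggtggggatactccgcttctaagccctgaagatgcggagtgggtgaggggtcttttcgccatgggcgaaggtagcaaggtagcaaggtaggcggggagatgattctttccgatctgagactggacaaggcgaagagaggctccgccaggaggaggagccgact
RefSeq windows of 250 bases before to 50 after the start were at hand for 5 of 9 members, 6 windows in all. They were searched on both strands for the E-box CACGTG, the D-box TTATGNAA, the ROR element, the forkhead motif TGTTTAC and the cyclic AMP element TGACGTCA. None of the 6 windows held any of them, which says only that these letters were not there. Of all 32851 windows, 7.15% held the E-box, 3.385% the D-box, 0.700% the ROR element, 3.65% the forkhead motif and 1.79% the cyclic AMP element.

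**Figure D3:**
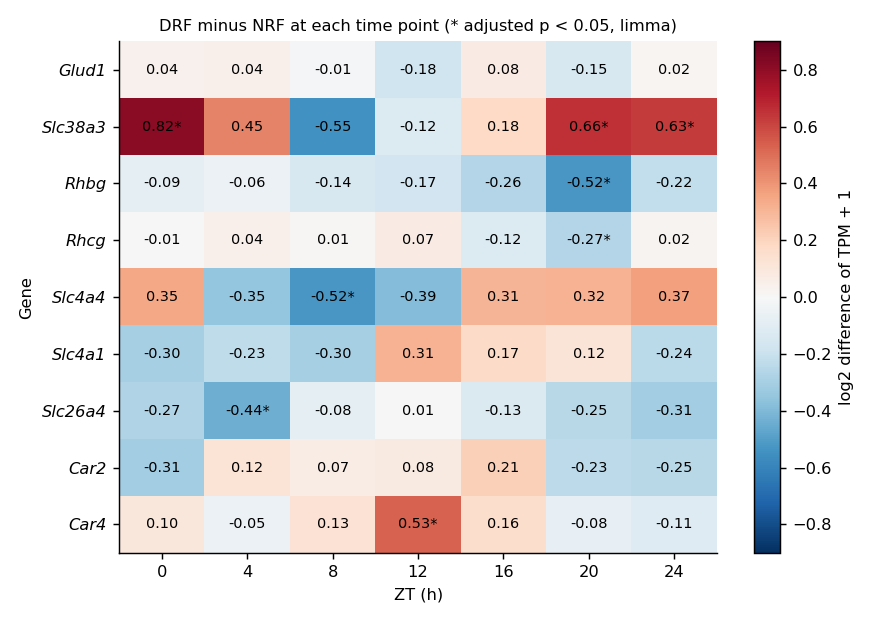
Log2 difference of TPM + 1, DRF minus NRF, for each member (rows) at each zeitgeber time in h (columns), with red for higher and blue for lower under DRF and an asterisk for a limma adjusted p under 0.05. The 8 calls are spread over 6 genes, and Slc38a3 holds 3 of them, from 0.63 to 0.82.

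Counted by time point, 1 of 9 members was called at each of ZT0, ZT4, ZT8, ZT12 and ZT24, where 17.0%, 27.6%, 15.2%, 18.7% and 14.7% of all genes were called. At ZT20 it was 3 members, against 16.9% of all genes, and at ZT16 it was 0, against 4.86%. At ZT20 the 3 were Slc38a3, which was higher under DRF, and Rhbg and Rhcg, which were lower. With ZT0 and ZT24 averaged, 4 of 9 were called against 30.7% of all genes, with Slc38a3 and Slc4a4 higher and Slc26a4 and Car2 lower under DRF. At ZT16, where no member was called, 594 of 12232 genes were called and 2364 had an unadjusted p under 0.05. For the mesor, 3 of 9 members were called against 9.28% of all genes, Rhbg and Slc26a4 downward and Car4 upward. The mesor of Slc38a3 was 0.22 ± 0.08 higher under DRF and missed the threshold (adjusted p 0.0581).

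To ask whether the members followed the light cycle or the meal, DRF groups were set against NRF groups at the same ZT and against NRF groups 12 h away, where the time since the feeding window opened was the same. For Slc4a4 the 6 differences at the same ZT lay between 0.31 and 0.52 in absolute value, with a median of 0.36, and the 6 differences matched for the meal lay between 0.02 and 0.23, with a median of 0.06. Both sets use the libraries that gave the phase shift of Slc4a4, so they are not separate evidence of it. No share over all genes is given for these medians. The matched means can be set side by side. They were 443 TPM at DRF ZT0 and ZT24 and 427 TPM at NRF ZT12, 300.4 TPM at DRF ZT4 and 287 TPM at NRF ZT16, and 325 TPM at DRF ZT8 and 322 TPM at NRF ZT20. At DRF ZT12, ZT16 and ZT20 they were 326, 354 and 395 TPM against 338, 407 and 476 TPM. None of the 6 was called (lowest adjusted p 0.461), though the interval at DRF ZT20 against NRF ZT8 reached from -0.60 to 0.13.

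Slc38a3 matched neither alignment as well. Its median absolute difference was 0.50 at the same ZT and 0.43 when matched for the meal, and DRF ZT4 exceeded NRF ZT16 by 0.70 ± 0.20 (adjusted p 0.00853), a call lost without replicate 2 (adjusted p 0.0576) or replicate 3 (difference 0.50, adjusted p 0.138). Rhbg differed more when matched for the meal, with 3 of 6 calls against 1 of 6 at the same ZT. The log2 differences were as follows. DRF ZT8 differed from NRF ZT20 by -0.65, with an adjusted p of 0.000178, DRF ZT16 from NRF ZT4 by -0.50, with an adjusted p of 0.00138 that became 0.0607 with the deposited values, and DRF ZT12 from NRF ZT0 and ZT24 by -0.33, with an adjusted p of 0.0256 that was lost in 7 of 16 alternative analyses, becoming 0.058 without the unnumbered library and 0.0765 with a replicate block. Rhcg differed between DRF ZT8 and NRF ZT20 by -0.25 (adjusted p 0.0308, lost in 4 of 16 alternative analyses, with 0.0649 for the deposited values), and Car4 was higher at DRF ZT0 and ZT24 than at NRF ZT12 by 0.51 (adjusted p 1.2e-05). Matched for the meal, members were called in 1, 1, 2, 1, 1 and 0 of 9 cases at DRF ZT0, ZT4, ZT8, ZT12, ZT16 and ZT20, where 10.3%, 18.0%, 14.7%, 16.9%, 33.1% and 12.3% of all genes were called. The sum of 6 such calls became 10 without NRF ZT4 replicate 1. Whether 1 alignment described a gene better than the other was not tested.

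**Figure D4:**
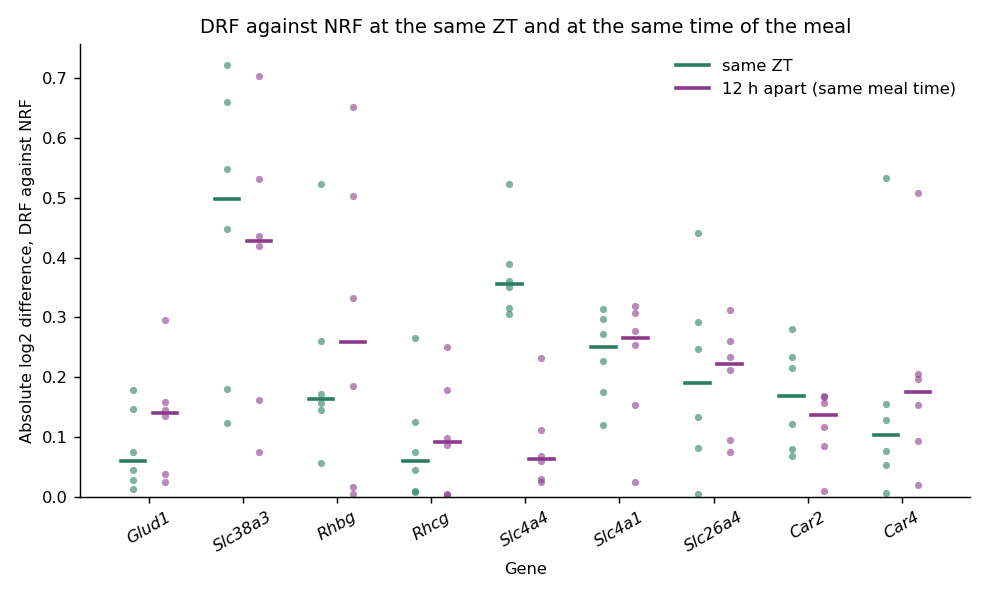
Absolute log2 difference between DRF and NRF for each member, with 6 points and a median bar for groups at the same ZT (green) and for groups 12 h apart, at the same time of the meal (purple). For Slc4a4 the medians are 0.36 and 0.06, and for Rhbg the order is the other way, 0.16 and 0.26.

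The paper on these mice reports 12-h rhythms of metabolites in liver and of diacylglycerols in visceral fat, not of kidney transcripts. Here a 12-h component of RNA was tested beside the 24-h cosine in each regimen. Under DRF it was called in 4 of 9 members against 24.7% of all genes. Slc38a3 had a 12-h amplitude of 0.27 ± 0.05 (adjusted p 0.000913) with peaks at 11.1 and 23.1 h. Rhbg had 0.19 ± 0.05 (adjusted p 0.00737) with peaks at 2.87 and 14.9 h, and Rhcg had 0.18 ± 0.03 (adjusted p 0.00105) with peaks at 1.64 and 13.6 h. Car2 had 0.18 ± 0.04 (adjusted p 0.00782) with peaks at 3.51 and 15.5 h, beside DRF means of 977 ± 61.2 TPM at ZT4 and 1009.6 ± 57.6 TPM at ZT16 with 828 ± 55.6 TPM between them at ZT8. Under NRF only Car4 was called (0.16 ± 0.03, adjusted p 0.0395), against 0.670% of all genes. That call was lost with the deposited values, with voom and with a replicate block. It was also lost without NRF ZT4 replicate 3, without any 1 of the replicates 1 to 4 of each group, and without the adipose-rich libraries. Leaving out ZT0, ZT4, ZT12 or ZT16 lost it too. The NRF component of Slc38a3 was 0.33 ± 0.09 and was not called (adjusted p 0.168), so the 12-h components of the regimens were not shown to differ. Samples 4 h apart give 6 clock times to fit 5 terms, and each DRF call was lost when at least 1 time point was left out.

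**Figure D5:**
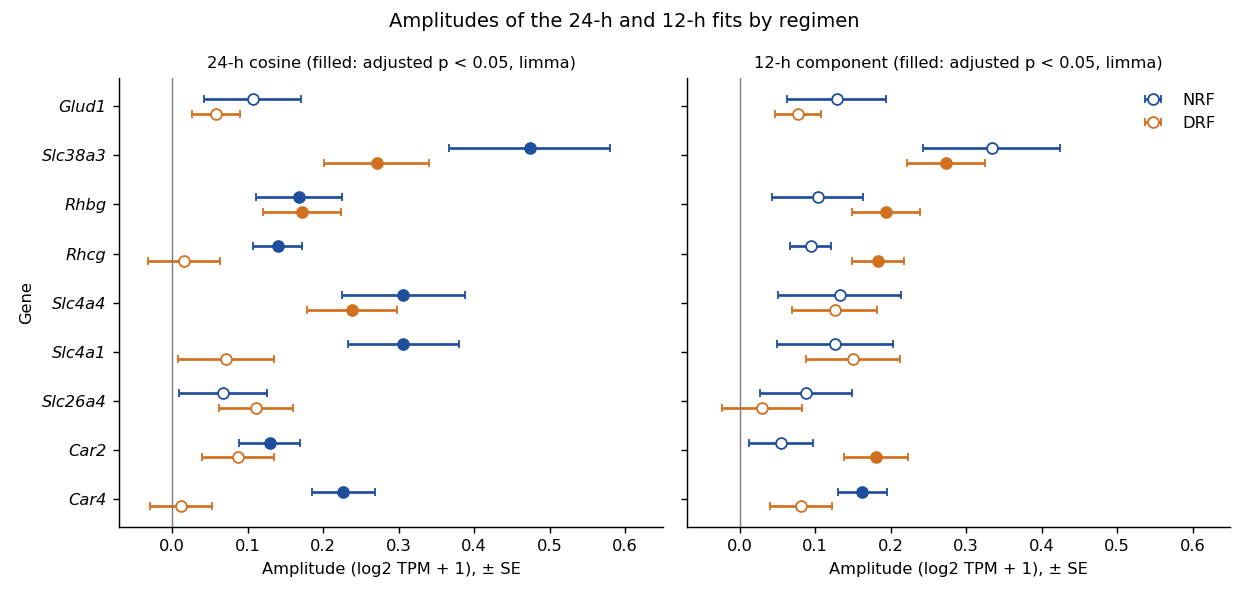
Amplitude ± SE on the log2 scale of the 24-h cosine (left) and the 12-h component (right) for each member, in blue for NRF and orange for DRF, with filled points for a limma adjusted p under 0.05. Filled points number 7 for NRF and 3 for DRF on the left, and 1 for NRF and 4 for DRF on the right.

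As a check on drift over the day, ZT24 was compared with ZT0 within each regimen. No member was called in either regimen, and the lowest adjusted p was 0.83 over differences from -0.16 to 0.20. Over all genes, limma called 83 of 12232 (0.679%) under NRF and 0 (0.00%) under DRF, where 505 genes had an unadjusted p under 0.05.

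The wider pathway was read from 6 lists, whose counts stand beside shares of 54.4% of all genes tested rhythmic under NRF, 36.0% under DRF and 45.4% with an interaction. In ammonia production and glutamine handling, 8 of 11 tested genes were rhythmic under NRF, 4 under DRF, and 7 had an interaction, so that the DRF count was near the 36.0% of all genes. Glul, glutamine synthetase, which consumes ammonia, had an amplitude of 0.64 ± 0.09 under NRF with a peak at 17.9 h and of 0.92 ± 0.09 under DRF with a peak at 12.7 h (interaction adjusted p 4.63e-08), and its means ran from 441 TPM at DRF ZT24 to 1834 TPM at DRF ZT16. Slc25a22, a mitochondrial glutamate carrier, moved its peak from 8.15 h under NRF to 20.6 h under DRF (shift -11.6 ± 0.79 h, interaction adjusted p 1.88e-09). Got1, the cytosolic aspartate aminotransferase, reached its peak at 20.3 h under NRF but 11.0 h under DRF (interaction adjusted p 8.6e-08). Under DRF, Glul and Got1 also had a 12-h component (limma adjusted p 2.85e-06 and 1.83e-06), which 24.7% of all genes had. Their DRF means were highest at ZT16, at 1834 and 222 TPM. The DRF peaks of their single cosines therefore describe these profiles only in part. Among the list genes named below, the component was also called for Atp6v0a2, Slc4a9, Slc26a1, Car5b and Tfcp2l1 (adjusted p 1.67e-06 to 0.0271). The same limit applies to them.

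Among vacuolar proton pump subunits, 11 of 21 tested genes were rhythmic under NRF, 7 under DRF, and 7 had an interaction, near or below the 54.4%, 36.0% and 45.4% of all genes. The median amplitudes were 0.09 and 0.08, beside 0.13 and 0.11 over all genes. The 3 with the lowest interaction p were Atp6ap1 (0.11 ± 0.02 under NRF and 0.05 ± 0.02 under DRF), Atp6v0a1, which had its peak at 9.48 h under NRF and 22.5 h under DRF, and Atp6v0a2 (0.22 ± 0.04 and 0.04 ± 0.04). Of the proton-potassium pumps and sodium-proton exchangers, 7 of 9 were rhythmic under NRF, 4 under DRF, and 6 had an interaction, against the same 54.4%, 36.0% and 45.4%. Atp12a, a proton-potassium pump of the collecting duct, had the largest amplitudes of any gene named here, 1.18 ± 0.14 under NRF with a peak at 7.11 h and 1.34 ± 0.11 under DRF with a peak at 20.99 h (interaction adjusted p 1.52e-14). It was a low transcript, whose means went from 0.24 TPM at NRF ZT16 to 7.29 TPM at NRF ZT8, and from 0.19 TPM at DRF ZT8 to 5.02 TPM at DRF ZT20. Chp1, a cofactor of sodium-proton exchangers, had 0.26 ± 0.04 under NRF and 0.03 ± 0.04 under DRF (interaction adjusted p 3.55e-05).

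Other bicarbonate transporters were rhythmic in 5 of 12 cases under NRF and 4 under DRF, and 8 had an interaction, where the shares over all genes were 54.4%, 36.0% and 45.4%, so the NRF count was below its background. Slc4a5, a sodium-bicarbonate cotransporter near the lower limit of the genes tested (1.34 TPM), moved its peak from 7.43 h under NRF to 19.2 h under DRF (interaction adjusted p 3.43e-05). Slc4a9, an anion exchanger of base-secreting intercalated cells, had amplitudes of 0.34 ± 0.06 and 0.19 ± 0.05 and a mesor difference of -0.19 ± 0.05 (adjusted p 0.0104), and Slc26a1, an anion exchanger of the proximal tubule, had 0.27 ± 0.06 and 0.15 ± 0.07 (interaction adjusted p 0.00289). Of the other carbonic anhydrases, 4 of 9 were rhythmic under NRF, 4 under DRF and 3 had an interaction, with the NRF and interaction counts below those shares and the DRF count above. Car15, a membrane form, rose to 391 TPM at DRF ZT12 and had an amplitude of 0.30 ± 0.04 under DRF and 0.08 ± 0.04 under NRF (interaction adjusted p 2.05e-06). Car5b, a mitochondrial form, peaked at 5.39 h under NRF and 0.59 h under DRF with amplitudes of 0.45 ± 0.06 and 0.45 ± 0.07 (interaction adjusted p 2.77e-05). Car9, a hypoxia-responsive form, had 0.68 ± 0.11 under NRF and 0.03 ± 0.07 under DRF (interaction adjusted p 0.000122).

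Among acid-base sensors and regulators, 8 of 12 tested genes were rhythmic under NRF, 4 under DRF, and 6 had an interaction, against 54.4%, 36.0% and 45.4% of all genes, and the DRF and interaction counts were near these. Tfcp2l1, a transcription factor of the collecting duct, reached its peak at 7.76 h under NRF but 22.3 h under DRF (shift -9.50 ± 1.18 h, interaction adjusted p 3.98e-07). Gprc5c, a receptor linked to renal acid-base balance, peaked at 5.73 h and at 0.45 h (interaction adjusted p 1.99e-05). Edn1, endothelin-1, had 0.33 ± 0.06 with a peak at 21.7 h under NRF and 0.20 ± 0.07 under DRF, which was not called (adjusted p 0.0617, interaction adjusted p 0.00111). Over the 74 tested genes of the 6 lists the mesor was called upward in 1 (Atp6v1f, 0.10) and downward in 9, where 9.28% of all genes were called in either direction. Of these 9, chosen for naming after their values were seen, Atp6v1b1, the pump subunit of intercalated cells, had a difference of -0.21 (adjusted p 0.000197), and Atp6v0d2, Slc4a9, Insrr and Dmrt2 belonged to the intercalated cell markers described with Rhbg.

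The genes whose 14 group means of log2(TPM + 1) most resembled each member were found among 8471 genes with a mean of at least 10 TPM, as a description, and all groups share the same libraries. Slc4a4 was most like Cnot6l (r = 0.94) and Deptor (r = 0.93), and Slc38a3 was most like Pttg1 (r = 0.90) and the metallothionein Mt1 (r = 0.90). Car2 was most like Ahcyl2 (r = 0.92) and Rtn4ip1 (r = 0.89), and Slc4a1 was most like Tmem101 (r = 0.92) and Slc43a2 (r = 0.82). For Glud1 these were Aoah (r = 0.86) and Ptgfr (r = 0.83), for Rhbg Shisa4 (r = 0.86) and Sfi1 (r = 0.86), and for Car4 Trir (r = 0.83) and Erich4 (r = 0.83). Rhcg was most like Plekhg3 (r = 0.79) and Thap2 (r = 0.78), and Slc26a4 was most like Cfap69 (r = 0.79) and Wnk1 (r = 0.77). Among the members themselves the most alike were Slc38a3 and Slc4a4 (r = 0.71), and the least alike were Glud1 and Car4 (r = -0.72).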

How the data were processed

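The authors deposited 1 table of kidney values per gene and sample, which they name TPM. Per the labels, the libraries were paired-end reads of poly(A) RNA on a BGISEQ-500, and the submitters' processing notes list HISAT2, Bowtie2 and RSEM with the builds mm10 and GRCm38.p6, with no versions. The deposited values were treated as a score, because they followed log2(1 + scaled reads) divided by gene length. The design had assumed TPM on a linear scale. Whole reads were recovered for 90.2% of 17027 genes at GENCODE M21 (GRCm38) exon lengths or lengths found by search, with 98.99% of their values above 0 within 0.1 of a whole read. All values of the 9 members were whole. TPM came from reads per base, scaled over these genes. The effective library sizes implied by the table were 24.8 to 28.9 M reads. Genes matched RefSeq by gene number, and no comparison columns or other per-sample columns were in the table.

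Values were taken as log2(TPM + 1) for genes averaging 1 TPM or more, and limma 3.58.1 (R 4.3.3, mean-variance trend) gave every test. The fits were a 24-h cosine and an added 12-h component per regimen (28 samples), the regimen by cosine interaction (56 samples), and contrasts of the 14 groups, with ZT0 and ZT24 averaged for the mesor and matched comparisons. Peak times are those of the fitted cosine, and shifts are DRF minus NRF. The fits were tested on simulated data. Figures were drawn with matplotlib 3.10.9. The text names all 9 members, from each pathway list the 3 genes with the lowest interaction p, and for each member the 2 most alike genes. A gene that this rule names is not reported here. Members and lists were chosen with earlier results of these data known. Alternatives were another pseudocount, filter, scaling or tool, the deposited values themselves, a replicate block, leaving out replicates, time points or single libraries, and minimum folds. The lists name 88 pathway genes, of which 74 were tested. Genes with fractional reads were not tested, and the globin genes among them count in the red cell marker sums at annotated lengths.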

Additional observations from a re-analysis of the deposited data

Results flagged for a closer look

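In 126 groups of 4 mice, 7 had a highest or lowest mouse far from the others by Dixon's criterion, where chance flags about 1 in 20 groups. Slc38a3 had 166 TPM in a DRF ZT4 mouse, Rhcg had 219 TPM in an NRF ZT12 mouse, and Slc4a1 had 61.0 TPM at NRF ZT20, 105 TPM at NRF ZT24 (the unnumbered library) and 81.7 TPM at DRF ZT16. Car2 had 1266 TPM in NRF ZT4 replicate 1 and 1071 TPM in DRF ZT24 replicate 4.

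The 24-h cosine differed between NRF and DRF, by the interaction in limma, in Slc4a4 (adjusted p 0.000144), Slc38a3 (0.000582), Car4 (0.00495), Car2 (0.0156) and Slc4a1 (0.029). Among these, DRF and NRF peaks could be compared only for Slc4a4 and Slc38a3, which were rhythmic under both regimens. No explanation was weighed for any of these results.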

How the results depend on the processing

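Member calls are counted over 9 genes, and over all their time points for contrasts. With the deposited values as they stand, NRF rhythm calls went from 7 to 4, 12-h calls under NRF from 1 to 0, meal-matched calls from 6 to 3 and same-ZT calls (ZT0 and ZT24 averaged) from 10 to 6. Minimum peak-to-trough ratios of 1.5 left 3 NRF and 0 DRF rhythms (of 3), and a minimum fold of 1.5 left 3 of 8 time point calls, 2 of 6 meal-matched, 2 of 10 same-ZT and 0 of 3 mesor calls. Rhythm calls under NRF were 4 without ZT12 and 3 without ZT8, those under DRF were 1 without ZT0 or ZT24, and interaction calls (5) were 3 without ZT0, ZT12 or ZT24. The 4 calls of a 12-h component under DRF were 2 without ZT4 or ZT8, and the call under NRF was 0 with voom, with the replicate block and without ZT0, ZT4, ZT12 or ZT16. Without the 6 adipose-rich libraries, an analysis chosen after seeing the data like the CPM scaling and the single libraries left out, mesor calls were 1 and 12-h calls under NRF 0. Leaving out a replicate of every group, or 1 NRF ZT4 library, gave 4 to 7 NRF rhythms, 0 to 3 DRF rhythms, 3 to 5 interactions, 0 to 1 and 2 to 4 12-h calls, 5 to 11 time point calls, 3 to 10 meal-matched calls, 5 to 12 same-ZT calls and 1 to 3 mesor calls. Over 56 results for single genes and 23 alternatives, 1049 values kept their direction and side of the threshold, 117 lost the call, 3 gained it and 0 reversed. Amplitudes and adjusted p values have no direction and could not reverse, and results not called at first could not lose a call. The Slc4a4 shift of 11.8 h without ZT16 was counted as kept. The cause of a lost or gained call was not tested in any case.

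Same-numbered libraries of different groups had a mean correlation of deviations of 0.0107 (-0.784 to 0.755, 351 pairs), and 40.2% of these pairs were above 0.1. The mean for different numbers was -0.000937. No pairing by number was seen on average, and pairing among part of the libraries was not tested. With the replicate block, in which the unnumbered library has a level of its own and so drops out, calls were 6 for NRF and 3 for DRF rhythm, 5 for the interaction, 4 for 12-h under DRF, 6 for time points, 5 for meal-matched, 8 for same-ZT and 3 for the mesor. Under 4 scalings the median DRF minus NRF difference of all genes lay between -0.05 and 0.05. Each group held 4 mice and each member had at least 1051 reads per library. How far depth or the number of mice limited the calls was not tested.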
